A study of Mus musculus with 12 samples.

Results

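The day 3 response difference describes how the change of mouse embryonic stem (ES) cells from day 0 to day 3 differed between a serum-free arm and a serum arm. It is the day 3 minus day 0 change in the serum-free arm minus the same change in the arm with fetal bovine serum (FBS), taken within each reporter line and averaged over both lines. The 8 arrays of days 0 and 3, of 12 in the series, give it. They hold 1 array each of the Stella-GFP and the Dazl-GFP line in 4 groups: serum-free day 3, serum-free day 0, FBS day 3 and FBS day 0. Both arms shared γ-irradiated MEF feeders (embryonic fibroblasts) and LIF, the cytokine leukemia inhibitory factor, and differed in the medium, B27N2 without serum or DMEM with 15% FBS. The labels call the serum-free arm the 2i condition, and 2i experiments used 1 µM of PD0325901, which inhibits MEK, with 5 µM of Kenpaullone, which inhibits GSK3β. They do not say what the serum-free cells had received at day 0, nor whether the FBS arm received the inhibitors. Each line is a single reporter line with 1 culture per group as far as the labels tell, so the p-values cover no more than the spread among these arrays.

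ES cells in culture are held between self-renewal and differentiation by a few signals. LIF acts through its receptor and STAT3, MEK and ERK kinases relay fibroblast growth factor and serum signals, and GSK3 marks beta-catenin for degradation, so that its inhibition mimics a Wnt signal. Serum also brings growth factors that switch on immediate early genes and, through serum response factor (SRF), genes of the actin and contractile apparatus.

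The results below turn on a few genes of these pathways, and the promoters of a Wnt target, a STAT3 target and an SRF target are shown first, with the motif of the pathway's factor in capitals. Each is 300 bases from RefSeq (GRCm38.p6), 250 before to 50 after the start of the gene, read 5′ to 3′ on the gene's strand. Sp5 (chr2:70474673-70474972, plus strand) holds 2 of the TCF/LEF words of 7 bases, which are CTTTGAA, further the word CTTTGAT, the word CTTTGTA and also the word CTTTGTT, searched on both strands. Socs3 (chr11:117969317-117969616, minus strand) holds 1 STAT word, TTCNNNGAA, which reads the same on both strands. Myl9 (chr2:156775214-156775513, plus strand) holds 1 CArG box, the SRF motif.
Sp5: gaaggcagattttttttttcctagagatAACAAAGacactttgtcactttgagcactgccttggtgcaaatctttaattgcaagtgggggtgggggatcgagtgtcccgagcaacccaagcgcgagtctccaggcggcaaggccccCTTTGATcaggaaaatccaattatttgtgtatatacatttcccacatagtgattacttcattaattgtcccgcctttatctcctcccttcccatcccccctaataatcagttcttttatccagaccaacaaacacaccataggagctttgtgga
Socs3: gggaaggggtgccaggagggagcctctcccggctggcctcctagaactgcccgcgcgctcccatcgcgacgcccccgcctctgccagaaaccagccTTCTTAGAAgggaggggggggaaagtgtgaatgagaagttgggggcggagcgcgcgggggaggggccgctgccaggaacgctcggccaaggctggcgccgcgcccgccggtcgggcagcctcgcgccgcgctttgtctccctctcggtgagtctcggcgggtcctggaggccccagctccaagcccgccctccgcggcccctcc
Myl9: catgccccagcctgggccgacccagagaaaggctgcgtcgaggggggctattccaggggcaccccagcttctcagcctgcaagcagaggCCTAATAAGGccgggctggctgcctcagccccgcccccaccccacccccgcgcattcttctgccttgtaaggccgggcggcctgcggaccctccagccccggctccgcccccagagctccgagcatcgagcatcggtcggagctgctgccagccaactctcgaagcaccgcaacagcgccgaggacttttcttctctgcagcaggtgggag
Of all 32851 RefSeq promoters of this length, 16.9% held a TCF/LEF word, 8.3% the STAT word and 1.63% a CArG box, with no correction for overlapping matches. A match only describes the letters. In the Wnt list 5 of 10 genes with a promoter entry held a TCF/LEF word, in the LIF-STAT3 list 2 of 13 held the STAT word, and in the contractile list 3 of 15 held a CArG box. Of 47 genes called lower below that have an entry, 9 held a TCF/LEF word, 4 the STAT word and 3 a CArG box.

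The share of spots well above background ran between 64% and 74.4%, and the 75th percentile of each array's signal between 454 and 947 intensity units. The number of arrays limits the precision. Levels are log2 signals minus the 75th percentile of the array, so a level of 0 is that of a fairly bright probe. The arrays lay on 3 slides. In the Dazl-GFP line each arm's day 3 and day 0 arrays shared a slide, as they did in the serum-free Stella-GFP cells, while the FBS Stella-GFP arrays of days 3 and 0 lay on different slides. The label was checked against markers. All 9 ES cell markers measured were above background on all 8 arrays, with Pou5f1 at 4.66 and 4.69 in serum-free day 3 cells, against 4.76 and 5.00 in serum-free day 0 cells, in Stella-GFP and Dazl-GFP cells (the order of all pairs of values here).

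Over all 41144 probes, 88 had a response difference past an adjusted p of 0.05 (0.214%, limma with Benjamini-Hochberg adjustment over all probes). It was below 0 at 68 probes (0.165%) and above 0 at 20 (0.0486%). At 59 of the 68 lower probes the level was lower at day 3 than at day 0 in serum-free cells and higher in FBS cells. This held at 13506 of all 41144 probes (32.8%). At 16 of the 20 higher probes it was the other way round, as at 7170 of all probes. Opposite changes are partly built in, since the probes were called on the difference between the changes of the arms. The lower probes had a median change of -1.89 in serum-free cells and 1.04 in FBS cells. The higher probes had one of 1.18 in serum-free cells and -1.55 in FBS cells. All 88 had the same sign in both lines, as did 71% of all probes. The median response difference over all probes was -0.18 (-0.04 after quantile normalization), and over 1 probe for each of 27666 genes -0.25.

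The calls lay close to the threshold, with a lowest adjusted p of 0.0335. An unadjusted p under 0.05 was reached by 11119 probes (27%), 3656 above 0 (8.89%) and 7463 below 0 (18.1%). With 1 probe per gene, 66 of 27666 genes passed (0.239%), and 7347 had an unadjusted p under 0.05 (26.6%). With the slide as a block 0 probes passed (limma, 7147 at an unadjusted p under 0.05). With within-slide changes alone, which leave 1 array in FBS day 0 and in FBS day 3, the 88 did not pass. All 88 kept their sign in both fits. The count was 0 without any 1 of the day 10 arrays, which only add to the estimate of the spread, and 0 without either serum-free day 3 array. Without 1 array of serum-free day 0, FBS day 3 or FBS day 0, a group keeps 1 array, and most probes that passed were not among the 88. Among the probes above background on at least 2 arrays 449 passed, 36.5% of them above 0 in place of 22.7%. A normexp background correction in place of the processed signal gave 0 calls as planned and 17856 once 10 outlying spot backgrounds of 1 array were repaired, a step chosen after seeing the data, with a median over all probes of -0.49. Of the 88 calls 75 were among these. At 31 called genes, nearly all of them described here, 801 values under 26 other settings had the same sign but for 2. Most were not past the threshold. Many of these settings, such as the filters, the variance trend and day 10 arrays left out, return the same value. Their signs could not turn, so they do not test the sign. Below, pairs of values are levels, and a single log2 value of a gene, with or without its adjusted p, is its response difference unless it is called a change.

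**Figure D1:**
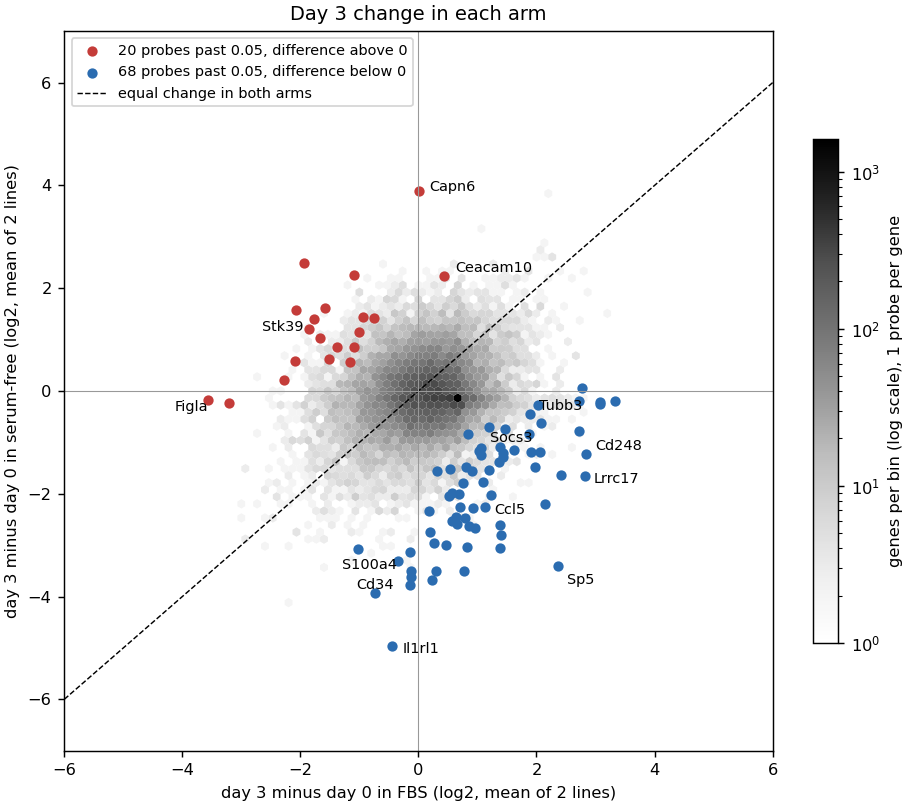
Day 3 minus day 0 change (log2, mean of both lines) in FBS on the horizontal axis and in serum-free cells on the vertical axis. Grey bins hold 27666 genes (1 probe each), blue points the 68 probes with a response difference below 0 and red points the 20 above 0. Most blue points lie below the line of equal change with the FBS change above 0 and the serum-free change below 0.

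The lowest response difference belonged to Sp5, a transcription factor gene that is a direct target of Wnt and beta-catenin. Its level was -2.21 and -4.14 in serum-free day 3 cells, against 0.70 and -0.24 in serum-free day 0 cells, and 1.45 and 0.00 in FBS day 3 cells, against -0.91 and -2.36 in FBS day 0 cells. The day 3 level was thus lower than the day 0 level on both serum-free pairs and higher on both FBS pairs, and the day 3 arrays of the arms did not overlap. The response difference was -5.76 (SE 0.68, adjusted p = 0.0393), with -5.27 in Stella-GFP and -6.25 in Dazl-GFP, and -5.33 with the slide as a block (not called). Ccn4, a matrix protein gene also known as a Wnt-inducible gene, had -1.75 and -2.55 in serum-free day 3 cells, against 0.44 and -0.35 in serum-free day 0 cells, and 1.80 and 0.58 in FBS day 3 cells, against -0.61 and -1.31 in FBS day 0 cells. It showed the same pattern, with a response difference of -4.34 (SE 0.35, adjusted p = 0.0335).

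The Wnt and beta-catenin list holds 15 measured genes, of which 11 were above background in all 4 groups. Sp5 alone passed, lower, against 0.195% of all genes called lower, and 14 did not pass. At an unadjusted p under 0.05, 8 of the 15 were below 0 and 0 above, against 19.8% and 6.76% of all genes. The same shares of all genes stand beside the counts of each list below. The median response difference of the list was -1.20, with -1.38 with the slide as a block and -1.41 from changes within slides. The median change was -1.86 in serum-free cells and -0.05 in FBS cells. Dkk1, a secreted Wnt inhibitor, had a response difference of -3.25 (SE 0.87, adjusted p = 0.116), Ccnd1, which encodes cyclin D1, one of -1.45 (adjusted p = 0.122) and T, the mesoderm factor Brachyury, one of -1.37 (adjusted p = 0.083). The homeobox gene Cdx2, of trophoblast and hindgut, its relative Cdx1, and Sp8, a relative of Sp5, were not well above background on either serum-free day 3 array. Set at the lowest signal above background there, their response differences were at least 2.15-fold, 1.75-fold and 1.81-fold lower, with fitted adjusted p of 0.147, 0.123 and 0.567. These bounds hold for the main fit alone. With normexp the fitted values turned to 0.43, 0.54 and 1.05, and that of Sp8 was 0.42 without the Dazl-GFP FBS day 0 array. Lgr5, a receptor of Wnt-potentiating R-spondins, was above background on 1 of the 8 arrays, and no size is given for it.

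Among LIF-STAT3 genes the change passed at Socs3, the feedback inhibitor of the LIF receptor, and at Bcl3, an IκB family cofactor. Socs3 stood at 2.16 and 2.31 in serum-free day 3 cells, against 3.30 and 3.37 in serum-free day 0 cells, and 4.48 and 4.61 in FBS day 3 cells, against 3.36 and 3.60 in FBS day 0 cells. Its day 3 level was below its day 0 level on both serum-free pairs and above it on both FBS pairs. The response difference of Socs3 was -2.17 (SE 0.22, adjusted p = 0.0335), with -2.26 in Stella-GFP and -2.07 in Dazl-GFP. Bcl3 stood at 1.15 and 1.07 in serum-free day 3 cells, against 1.79 and 1.83 in serum-free day 0 cells, and 3.65 and 3.44 in FBS day 3 cells, against 2.41 and 2.29 in FBS day 0 cells, in the same order as Socs3. The response difference of Bcl3 was -1.89 (SE 0.23, adjusted p = 0.0401).

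The 13 measured genes of that list were all above background in all 4 groups. Of these 2 passed, both lower, and 11 did not pass, and at an unadjusted p under 0.05 there were 6 below 0 and 0 above. The median was -0.67, with a median change of -0.13 in serum-free cells and 0.70 in FBS cells. Osmr, the oncostatin M receptor, had -2.48 (adjusted p = 0.083), Stat3 itself -0.74 (adjusted p = 0.128) and Gbx2, a homeobox gene downstream of STAT3, -0.99 (adjusted p = 0.416). Gbx2 had a mean change of -4.01 in serum-free and -3.02 in FBS cells, so its level was lower at day 3 in both arms.

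Immediate early genes encode transcription factors that growth factors switch on without new protein synthesis. None of the 18 measured genes passed, while 11 were below 0 at an unadjusted p under 0.05 and 0 above. Their median response difference was -1.32 (-1.14 with the slide as a block), with a median change of -0.30 in serum-free cells and 1.09 in FBS cells. The largest difference was at Egr2, a zinc finger factor, with -3.36 and -2.27 in serum-free day 3 cells, against -2.20 and -2.45 in serum-free day 0 cells, and 2.02 and 1.61 in FBS day 3 cells, against -1.55 and -2.39 in FBS day 0 cells. Only the FBS day 3 arrays lay above 0, and the other 6 lay between -3.36 and -1.55. The response difference of Egr2, -4.27 (SE 0.66, adjusted p = 0.0569), did not pass. Fos, a part of the AP-1 dimer, had -3.68 (adjusted p = 0.07) and Egr1 -3.13 (adjusted p = 0.0834). Jun, the partner of Fos, was higher at day 3 in both arms, with a mean change of 1.48 in serum-free and 3.23 in FBS cells and a response difference of -1.74 (adjusted p = 0.0883). The growth regulator gene Myc was lower at day 3 in both arms, with -4.14 in serum-free and -2.25 in FBS cells and a response difference of -1.89 (adjusted p = 0.254). Sik1, a kinase gene switched on by cyclic AMP and outside the list, passed at -2.20 (SE 0.23, adjusted p = 0.0335), and it was named after its value was seen.

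Genes of the contractile apparatus and of SRF were measured at 19 members. Myl9, a regulatory light chain of smooth muscle myosin, was called lower and 18 did not pass. At an unadjusted p under 0.05, 12 members were below 0 and 1 above, and the median was -0.87. Myl9 stood at -1.48 and -1.92 in serum-free day 3 cells, against 1.57 and 1.05 in serum-free day 0 cells, and 3.20 and 2.18 in FBS day 3 cells, against 3.00 and 1.45 in FBS day 0 cells. Both serum-free day 3 arrays were below the other 6. For Myl9 the response difference was -3.46 (SE 0.41, adjusted p = 0.0393), with -3.24 in Stella-GFP and -3.69 in Dazl-GFP. Tagln, an actin-binding protein of smooth muscle, had -2.63 (adjusted p = 0.0531) at its brightest probe and -3.90, which passed, at its other probe. Probes of Acta2, smooth muscle actin, disagreed. The brightest gave -0.63 (adjusted p = 0.155), while 2 of its other 4 probes passed at -4.20 and -3.85. Ccn1, a matricellular target of SRF and YAP, had -1.73 (adjusted p = 0.128). Thbs1, which encodes thrombospondin, had -2.24 (adjusted p = 0.155), or -1.04 within slides. Cald1, which encodes the actin-binding caldesmon, went the other way at 2.06 (adjusted p = 0.128), though its second probe had -0.07.

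**Figure D2:**
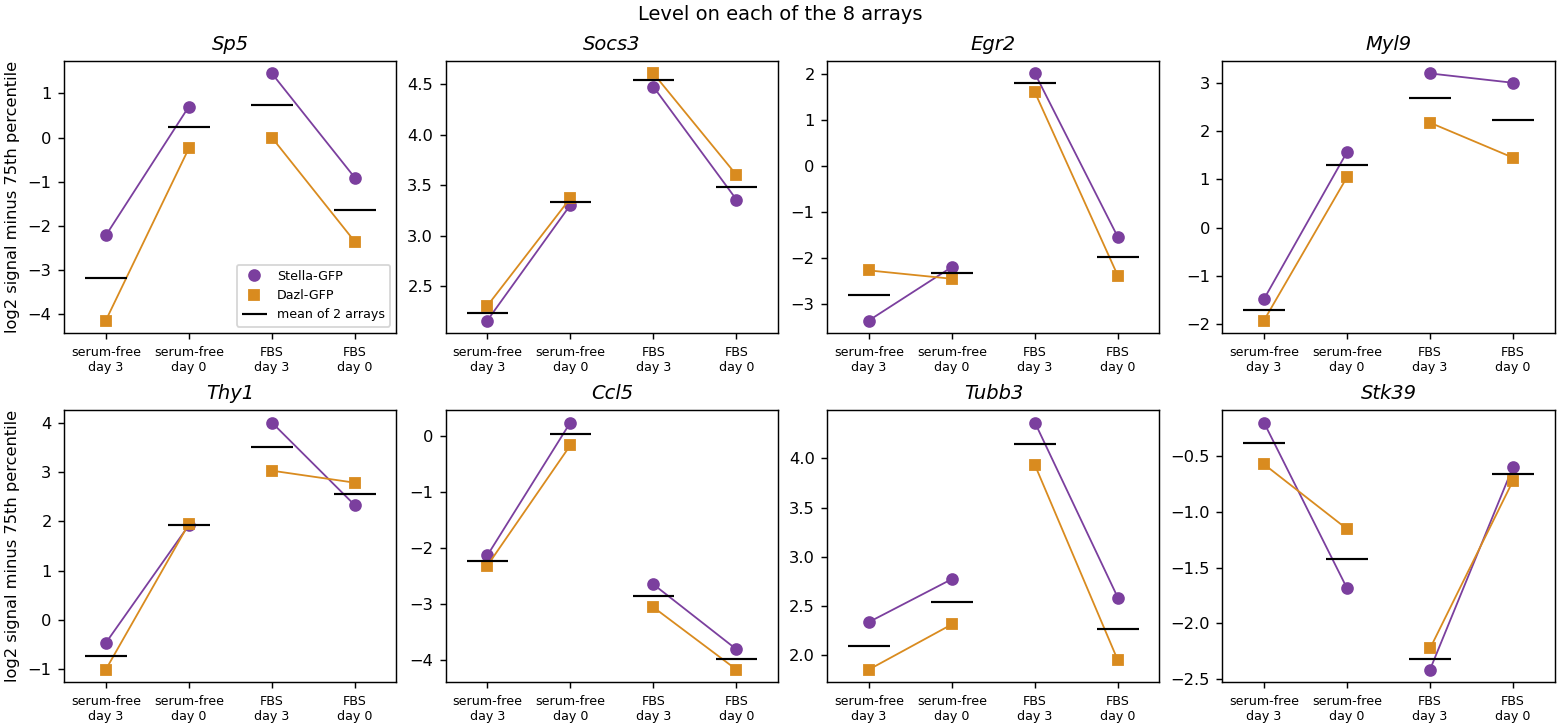
Level of 8 genes (log2 signal minus the array's 75th percentile) on each array, with serum-free day 3 and day 0 on the left and FBS day 3 and day 0 on the right of each panel. Circles are Stella-GFP and squares Dazl-GFP cells, lines join days of 1 arm and line, and black bars are means of 2 arrays. Sp5, Socs3, Ccl5 and Tubb3 are lower at day 3 in serum-free cells and higher at day 3 in FBS cells in both lines, and Stk39 is the reverse.

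The list with the lowest median held genes of fibroblasts, the cells used as feeders. Of 22 measured genes 4 were called lower (Thy1, S100a4, Fbn1 and Twist2), 18 did not pass, and 15 were below 0 and 0 above at an unadjusted p under 0.05. The median response difference was -2.31 (-1.45 in the Dazl-GFP line, whose pairs share slides). It was -1.69 with the slide as a block and -1.31 from changes within slides, and ran between -3.03 and -1.51 without 1 array. The median change was -1.25 in serum-free cells and 0.69 in FBS cells. Thy1, a surface glycoprotein of fibroblasts and other cells, stood at -0.47 and -1.01 in serum-free day 3 cells, against 1.92 and 1.95 in serum-free day 0 cells, and 4.01 and 3.03 in FBS day 3 cells, against 2.33 and 2.79 in FBS day 0 cells. The serum-free day 3 arrays were below the other 6, and the response difference came to -3.63 (SE 0.49, adjusted p = 0.0493), with -2.02, which did not pass, at its other probe. S100a4, a calcium-binding protein of fibroblasts, had -3.48 (SE 0.44, adjusted p = 0.0443), Fbn1, the microfibril protein fibrillin, -3.20 (SE 0.38, adjusted p = 0.0393) and Twist2, a mesenchymal transcription factor, -2.55 (SE 0.31, adjusted p = 0.0413). S100a4 had a mean change of -3.61 in serum-free cells, against -0.13 in FBS cells. The collagen gene Col1a1 had -3.10 (adjusted p = 0.0514), Col5a1 -3.01 (adjusted p = 0.0569), Col3a1 -2.66 (adjusted p = 0.12) and the collagen cross-linking enzyme gene Lox -3.31 (adjusted p = 0.107), none of which passed.

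The summed signal of the 22 fibroblast genes, in multiples of the array's 75th percentile, was 54.2 and 44.1 in serum-free day 3 cells, against 76.2 and 66.7 in serum-free day 0 cells. It was 162 and 97.1 in FBS day 3 cells, against 79.1 and 76.1 in FBS day 0 cells. The sum was thus lower at day 3 in serum-free cells and higher at day 3 in FBS cells in both lines. The median log2 level of the genes in FBS rose in Stella-GFP cells, from -0.71 at day 0 to 0.47 at day 3. In Dazl-GFP cells it fell, from 0.44 to -0.46. The median FBS change of the genes was 1.43 in Stella-GFP and 0.11 in Dazl-GFP cells. Of the 9 defining markers Fap alone was not well above background on the day 3 arrays of either arm. In these bulk samples fewer fibroblasts and less RNA of these genes per cell cannot be told apart. The summed signal of fibroblast genes ran in the same direction in each arm as 59 of the 68 probes called lower. At 8 of the 68 both arms were lower at day 3, as at Cd34 and Il1rl1, and at 1 both were higher. The part of fibroblast content in the lower genes, among them SRF, LIF-STAT3 and matrix genes, was not tested. The 9 ES cell markers summed to 663 and 583 in serum-free day 3 cells, against 541 and 478 in serum-free day 0 cells, and to 554 and 649 in FBS day 3 cells, against 523 and 544 in FBS day 0 cells.

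The other genes among the 12 lowest called, which the rule took with the same sign in both lines, were in none of the lists. Cd248, the mesenchymal surface protein endosialin, stood at -0.89 and -1.30 in serum-free day 3 cells, against 0.26 and -0.01 in serum-free day 0 cells, and 3.14 and 2.44 in FBS day 3 cells, against -0.17 and 0.06 in FBS day 0 cells. It was highest on the FBS day 3 arrays, with a response difference of -4.06 (SE 0.43, adjusted p = 0.0335) and -3.03 at its other probe. Lrrc17, a secreted protein with leucine-rich repeats, had -4.47 (SE 0.47, adjusted p = 0.0335), Fbln5, an elastic fibre protein, -4.06 (SE 0.46, adjusted p = 0.0393) and Tmem140, a membrane protein of little known role, -3.50 (SE 0.44, adjusted p = 0.0439). The other probes of Fbln5 and of Tmem140 were not well above background on any of the 8 arrays. Cd34, a sialomucin of blood progenitors, endothelium and fibroblasts, had -3.64 (SE 0.44, adjusted p = 0.0401) and a mean change of -3.78 in serum-free cells, against -0.14 in FBS cells. Fads3, of the fatty acid desaturase cluster, had -3.97 (SE 0.42, adjusted p = 0.0335), and its other probe, not well above background in serum-free day 3 cells, passed at a difference at least 15.3-fold lower. Il1rl1, the receptor of interleukin 33, was not well above background on either serum-free day 3 array and stood at -2.09 in serum-free day 0, -0.74 in FBS day 3 and -0.30 in FBS day 0 cells. The response difference amounts to at least 11.7-fold lower (adjusted p = 0.0335), with the serum-free day 3 arrays at the lowest signal above background. Another probe of Il1rl1, above background on all 8 arrays, gave -1.67 and did not pass. A further probe, not well above background on either serum-free day 0 array, went the other way at 1.43 and did not pass.

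Named after their values were seen, other called genes were, with their response differences, Tgfbr2, a receptor of TGF-beta, at -3.08 (-0.63 at the other probe measured in all 4 groups), Cav1, which encodes caveolin 1, at -3.26, Krt17, an epithelial keratin, at -3.44, and S100a6, a calcium-binding protein, at -2.93. Gpr176, an orphan receptor, was not well above background on either serum-free day 3 array and at least 5.21-fold lower. The hyaluronan receptor Cd44 passed at -4.26 on a dimmer probe and had -3.52 (adjusted p = 0.0608) at its brightest and -0.54 at its remaining probe. Interleukin 6, Il6, passed in the fit but was above background on 0 serum-free day 3 arrays, 1 serum-free day 0, 2 FBS day 3 and 1 FBS day 0 array.

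Matrix proteases and their inhibitors included 1 called member, Mmp14, a membrane-bound collagenase, with -2.05 (SE 0.25, adjusted p = 0.041) and -1.98 in Stella-GFP and -2.12 in Dazl-GFP. Its other probe gave -1.27 and did not pass. The other 16 of the 17 measured did not pass, 8 were below 0 and 0 above at an unadjusted p under 0.05, and the median response difference was -1.47 (-0.89 within slides). Mmp3, stromelysin, had -2.71 (adjusted p = 0.283), with a mean change of -4.37 in serum-free and -1.65 in FBS cells. It was -1.32 with the slide as a block, -1.04 within slides, -1.02 without the Stella-GFP FBS day 0 array and -4.41 without the Dazl-GFP one. Mmp13, a collagenase, was not well above background on either serum-free day 3 array, and its response difference was at least 2.81-fold lower (adjusted p = 0.134).

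Of the 14 chemokines measured Ccl5, which attracts T cells and monocytes, was called lower and 13 did not pass, with 8 below 0 and 1 above at an unadjusted p under 0.05. Ccl5 stood at -2.13 and -2.31 in serum-free day 3 cells, against 0.24 and -0.16 in serum-free day 0 cells, and -2.64 and -3.05 in FBS day 3 cells, against -3.80 and -4.16 in FBS day 0 cells. It was highest in serum-free day 0 cells and lowest in FBS day 0 cells, and the arms were nearer at day 3. The response difference of Ccl5 was -3.39 (SE 0.33, adjusted p = 0.0335), with -3.53 in Stella-GFP and -3.26 in Dazl-GFP. Ccl2, which attracts monocytes, had -3.20 (adjusted p = 0.0775), Cxcl10, an interferon-inducible chemokine, -3.06 (adjusted p = 0.113) and Cx3cl1, fractalkine, -2.74 (adjusted p = 0.0514). The mean change of Ccl2 was -3.37 in serum-free and -0.18 in FBS cells, and that of Cx3cl1 -2.93 in serum-free and -0.19 in FBS cells. The median of the list was -1.60. None of the 16 interferon response genes passed, 6 were below 0 and 0 above at an unadjusted p under 0.05, and their median was -0.97. Ifit3, an interferon-induced gene, had -3.67 (adjusted p = 0.0893) and Isg15, a ubiquitin-like modifier, -2.66 (adjusted p = 0.111).

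Macrophage genes, which could come with feeder cells, were measured at 19 members, and none passed. At an unadjusted p under 0.05 there were 11 below 0 and 1 above, with a median of -1.69 (-0.82 within slides). In the Dazl-GFP line alone the median was -0.72. Lyz2, a lysozyme of macrophages, stood at -4.58 and -2.78 in serum-free day 3 cells, against 1.04 and 0.06 in serum-free day 0 cells, and 2.60 and 1.61 in FBS day 3 cells, against 0.70 and 2.64 in FBS day 0 cells. The FBS pairs ran in opposite directions in the 2 lines, and the response difference, -4.67 (adjusted p = 0.0983), did not pass. Ptprc, the pan-leukocyte marker CD45, was above background on 3 of the 8 arrays, and Tyrobp, a myeloid signalling adaptor, on none of the serum-free day 3 arrays. The summed signal of the list was 2.72 and 3.61 in serum-free day 3 cells, against 4.4 and 3.88 in serum-free day 0 cells, and 11.1 and 7.01 in FBS day 3 cells, against 3.53 and 9.86 in FBS day 0 cells. Its FBS change was upward in Stella-GFP and downward in Dazl-GFP cells.

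**Figure D3:**
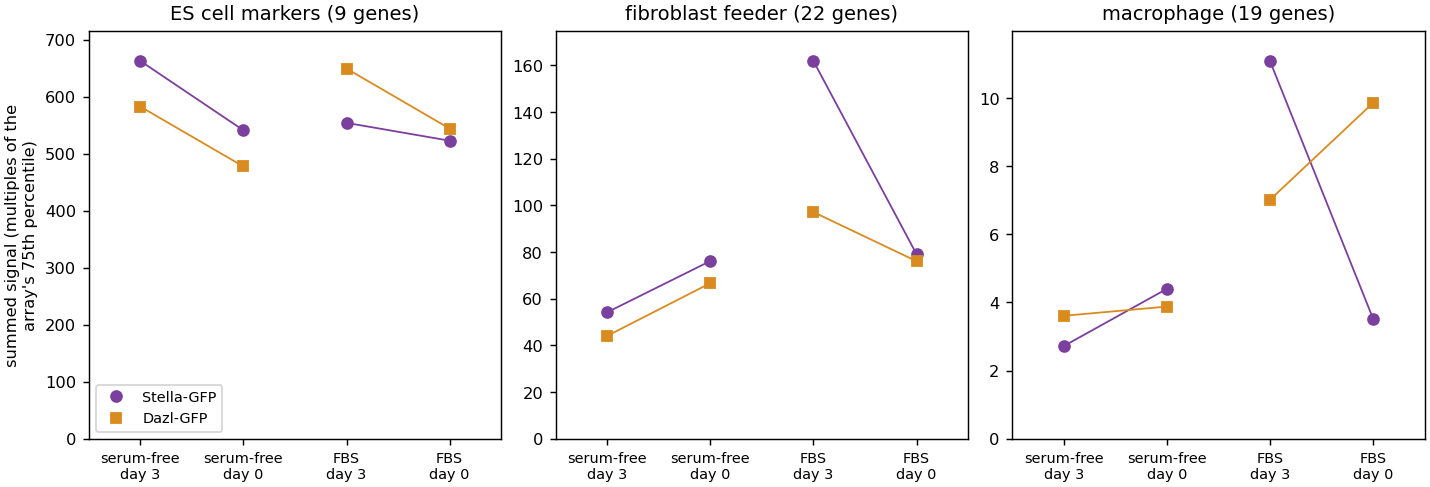
Summed linear signal of ES cell (9 genes), fibroblast (22) and macrophage (19) markers on each of the 8 arrays, in multiples of the array's 75th percentile, with the axis from 0. The fibroblast sum is lowest in serum-free day 3 cells and highest in FBS day 3 cells in both lines, while the macrophage sum in FBS changed in opposite directions in the 2 lines.

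Neuroectoderm, mesendoderm and primitive endoderm are the first lineages that ES cells enter on differentiation. Of 14 neuroectoderm genes Tubb3, the neuronal beta-tubulin, was called lower and 13 did not pass, with 5 below 0 and 0 above at an unadjusted p under 0.05 and a median of -0.95. Tubb3 stood at 2.33 and 1.85 in serum-free day 3 cells, against 2.77 and 2.31 in serum-free day 0 cells, and 4.37 and 3.93 in FBS day 3 cells, against 2.58 and 1.94 in FBS day 0 cells. The FBS day 3 arrays were above the other 6. For Tubb3 the response difference was -2.34 (SE 0.28, adjusted p = 0.0401), with -2.22 in Stella-GFP and -2.45 in Dazl-GFP. Nefl, a neurofilament gene, had -2.13 (adjusted p = 0.0696) and Hes5, a Notch target of neural progenitors, -1.66 (adjusted p = 0.117), while the neural factors Sox1 at -0.03 and Pax6 at 0.68 did not pass either. Of 14 mesendoderm and trophoblast genes 0 passed, 6 were below 0 and 0 above at an unadjusted p under 0.05, and the median was -1.40. It was -0.36 over the members above background on all 8 arrays. Gsc, the organizer factor goosecoid, had -3.34 (adjusted p = 0.0838). Gata3, a trophoblast factor, was not well above background on either FBS day 0 array, and its response difference was at least 3.73-fold lower (adjusted p = 0.128). Its fitted value turned to 0.58 with normexp.

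Primitive endoderm gives rise to the yolk sac lining and lays down basement membrane. None of its 19 measured genes passed, 3 were above 0 and 3 below at an unadjusted p under 0.05, and the median was 0.42. The basement membrane genes Col4a1 and Col4a2 had 1.83 (adjusted p = 0.154) and 1.70 (adjusted p = 0.201), with 1.04 in Stella-GFP and 2.62 in Dazl-GFP for Col4a1. Lamb1, a laminin chain, had 1.43 (adjusted p = 0.128). The lineage regulators Gata4 (-0.27), Gata6 (1.06), Sox17 (0.54) and Sox7 (0.18) did not pass.

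Naive pluripotency genes had no call, where 0.239% of all genes passed. Of 20 measured, all above background in all 4 groups, 20 did not pass. At an unadjusted p under 0.05, 1 was above 0 and 4 below, against 6.76% and 19.8% of all genes. The median was -0.27 against -0.25 over all genes. Their median change was 0.48 in serum-free and 0.57 in FBS cells. Nanog, a core factor of self-renewal, stood at 3.31 and 3.80 in serum-free day 3 cells, against 2.53 and 2.66 in serum-free day 0 cells, and 3.26 and 3.25 in FBS day 3 cells, against 2.34 and 2.45 in FBS day 0 cells. All 4 day 3 arrays lay above all 4 day 0 arrays, and the response difference was 0.11 (adjusted p = 0.837). Pou5f1, which encodes Oct4, had 0.36 (adjusted p = 0.724), with the sign turned by the slide as a block (-0.33), within slides (-0.44) and without the Stella-GFP FBS day 3 array (-0.23). Sox2, its partner, had 0.65 (adjusted p = 0.17) and Zfp42, the marker Rex1, -0.64 (adjusted p = 0.128). Dppa3, the maternal factor Stella, was higher at day 3 in both arms, with a mean change of 1.60 in serum-free and 2.70 in FBS cells, and had a response difference of -1.10 (adjusted p = 0.401). Sall4, a zinc finger factor, had -0.99 (adjusted p = 0.122) with -0.06 at its other probe, and Utf1 0.78 (adjusted p = 0.378).

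The 13 primed and formative genes, which mark the step towards the epiblast, had 0 calls and a median of 0.41, which was 0.04 within slides. Both arms had lower levels at day 3, with a median change of -1.67 in serum-free and -2.10 in FBS cells. Pou3f1, the POU factor Oct6, had a mean change of -3.53 in serum-free and -2.10 in FBS cells, with a response difference of -1.42 (adjusted p = 0.146). Otx2, a formative factor, had 1.28 (adjusted p = 0.131). Feedback inhibitors and Etv factors downstream of ERK also had 0 calls in 13 and a median of -0.02. Dusp6, a phosphatase of ERK, had a mean change of -2.74 in serum-free and -2.02 in FBS cells and a response difference of -0.72 (adjusted p = 0.423). Etv4, an ETS factor, had -4.53 in serum-free and -2.74 in FBS cells and a response difference of -1.79 (adjusted p = 0.0892). Spred1, an inhibitor of Ras signalling, had 1.21 (adjusted p = 0.1) with 0.67 and -0.14 at its other probes, and Phlda1 -1.72 (adjusted p = 0.128).

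Of 22 germ cell and meiosis genes 1 was called higher, Figla, an oocyte transcription factor, against 0.0434% of all genes called higher, and 21 did not pass. Figla was above background on the FBS day 0 arrays alone, at -4.23 and -4.49, so no fold is given, and its sign was turned (-0.12) by the repaired normexp correction. Dazl, an RNA-binding protein of germ cells, stood at -1.63 and 0.69 in serum-free day 3 cells, against -2.68 and -1.01 in serum-free day 0 cells, and -2.61 and 0.18 in FBS day 3 cells, against -1.94 and -0.79 in FBS day 0 cells. Its day 3 level was above its day 0 level on both serum-free pairs and in FBS in the Dazl-GFP line but not in Stella-GFP. The response difference of Dazl was 1.22 (SE 0.88, adjusted p = 0.414) and did not pass. It was 0.59 with the slide as a block, 0.40 within slides and 0.40 to 2.05 without 1 array. Another probe of Dazl, above background on all 8 arrays, gave 1.67 (adjusted p = 0.151) and did not pass. Its values were 1.74 in Stella-GFP and 1.60 in Dazl-GFP. Sycp3, of the synaptonemal complex, had 1.81 (adjusted p = 0.128) and Stra8, a gatekeeper of meiosis, 1.53 (adjusted p = 0.243), or 0.59 within slides. The median of the list was 0.29, and -0.04 over the members above background on all 8 arrays.

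DNA methylation and demethylation genes had 0 calls in 14, with 1 above 0 and 4 below at an unadjusted p under 0.05 and a median of 0.14, which was -0.02 with the slide as a block and -0.21 within slides. The 5-methylcytosine oxidase gene Tet1 had 0.25 (adjusted p = 0.685), Tet2 -0.41 (adjusted p = 0.364) with 1.21 at its other probe, and Tet3 0.73 (adjusted p = 0.467) with -0.02 at the other probe measured in all 4 groups. The de novo methyltransferase gene Dnmt3a had a mean change of -0.40 in serum-free cells, against -2.31 in FBS cells, with a response difference of 1.91 (adjusted p = 0.092). Its other probes gave differences nearer 0, the higher 0.78. Uhrf1, which recruits the maintenance enzyme Dnmt1, had -0.99 (adjusted p = 0.128), and Gadd45b, a stress gene linked to demethylation, -1.69 (adjusted p = 0.116).

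Few named genes had a called response difference above 0. Stk39, a kinase that regulates ion cotransporters, stood at -0.20 and -0.57 in serum-free day 3 cells, against -1.69 and -1.15 in serum-free day 0 cells, and -2.42 and -2.23 in FBS day 3 cells, against -0.60 and -0.72 in FBS day 0 cells. Its day 3 level was above its day 0 level on both serum-free pairs and below it on both FBS pairs. For Stk39 the response difference was 2.70 (SE 0.33, adjusted p = 0.0413), with 3.31 in Stella-GFP and 2.09 in Dazl-GFP. Ceacam10, of the carcinoembryonic antigen family, stood at -1.54 and -2.31 in serum-free day 3 cells, against -3.92 and -4.42 in serum-free day 0 cells, and -4.12 and -4.75 in FBS day 3 cells, against -4.67 and -5.08 in FBS day 0 cells, with the serum-free day 3 arrays above the other 6 and a response difference of 1.81 (SE 0.24, adjusted p = 0.0493). Capn6, a calpain without protease activity, was above background on the serum-free day 3 arrays alone, at -2.52 and -2.11, and was named after its value was seen. Its fitted response difference passed at an adjusted p of 0.0393, but no fold is given since the other 3 groups were not well above background, and its other probe was not well above background on any of the 8 arrays.

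The next highest named genes did not pass. They were, with their response differences, Camk1d, a calcium-dependent kinase, at least 7.52-fold higher (adjusted p = 0.0748), Mfsd6 at 3.04 (adjusted p = 0.0558), Myl1, a muscle myosin light chain, at 3.03 (adjusted p = 0.101), Neil2, a DNA glycosylase, at 2.96 (adjusted p = 0.115) and Ceacam1, an adhesion molecule, at 2.94 (adjusted p = 0.0847). Dleu7 had 2.84, Scg5, a neuroendocrine chaperone, 2.71, Insr, the insulin receptor, 2.71, Rif1, a regulator of replication timing, 2.70 and the MHC class I gene H2-Bl 2.70. Other probes above background in all 4 groups gave smaller differences, 0.33 for Rif1, 0.47 for Insr, 0.22 and 0.86 for Ceacam1 and 0.83 for Camk1d.

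Sterol and fatty acid synthesis, the longest list, had the most members above 0 at an unadjusted p under 0.05 among the lists. They were 10 of 30, with 2 below, against 6.76% and 19.8% of all genes. By share, genes of the aryl hydrocarbon receptor had more above 0, with 3 of 8. None of the 30 sterol and fatty acid genes passed, and their median was 0.30, or 0.60 after quantile normalization. Stard4, a cholesterol carrier, had 2.19 (adjusted p = 0.0983) with -0.58 and -0.07 at its other probes, the desaturase gene Scd1 1.18 (adjusted p = 0.174), Nsdhl, of sterol demethylation, 1.13 (adjusted p = 0.128) and the elongase gene Elovl6 1.04 (adjusted p = 0.0892). Of 18 cell division genes none passed, 7 were below 0 and 0 above at an unadjusted p under 0.05, and the median was -0.43 (-0.14 after quantile normalization). Ccne1, cyclin E1, had a mean change of -1.94 in serum-free cells, against 0.05 in FBS cells, with a response difference of -1.99 (adjusted p = 0.0829).

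BMP and Id genes had 0 calls in 14, with 4 below 0 and 0 above at an unadjusted p under 0.05 and a median of -0.44. Id1 and Id3, inhibitors of helix-loop-helix factors that BMP and serum switch on, had -2.41 (adjusted p = 0.128) and -1.85 (adjusted p = 0.116). Of 8 genes of the aryl hydrocarbon receptor none passed, 3 were above 0 and 4 below at an unadjusted p under 0.05, and their median was -0.11. It was 0.03 after quantile normalization, 0.40 with the authors' deposited table, 0.91 with normexp and 0.73 over the members above background on 2 or on all 8 arrays. The receptor's target Cyp1a1, a detoxifying cytochrome, was above background on both day 3 groups and on no day 0 array, with a level of -1.07 and 0.06 in serum-free day 3 cells and -2.87 and -1.69 in FBS day 3 cells, and no response difference is given for it. Cyp1b1 had -1.95 (adjusted p = 0.128). The remaining 9 lists also had 0 calls. Their medians were -0.58 for antioxidant response, -0.24 for p53 targets, -0.17 for Nodal, -0.10 for imprinted genes, -0.08 for ATF4 targets, -0.06 for aminoacyl-tRNA synthetases, -0.03 for glycolysis and hypoxia, 0.29 for 2-cell stage genes and 0.40 for retinoid response. The retinoid median was 1.39 in Stella-GFP and -0.13 in Dazl-GFP cells, 0.05 within slides and -0.19 with repaired normexp, and 0.0053 to 1.04 without 1 array. The 2-cell median was -0.49 with the slide as a block and -0.99 within slides, and that of glycolysis and hypoxia 0.06 with the slide as a block and 0.17 within slides. Quantile normalization turned the sign at ATF4 targets (0.24), aminoacyl-tRNA synthetases (0.26), p53 targets (0.05), imprinted genes (0.05) and glycolysis and hypoxia (0.13).

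**Figure D4:**
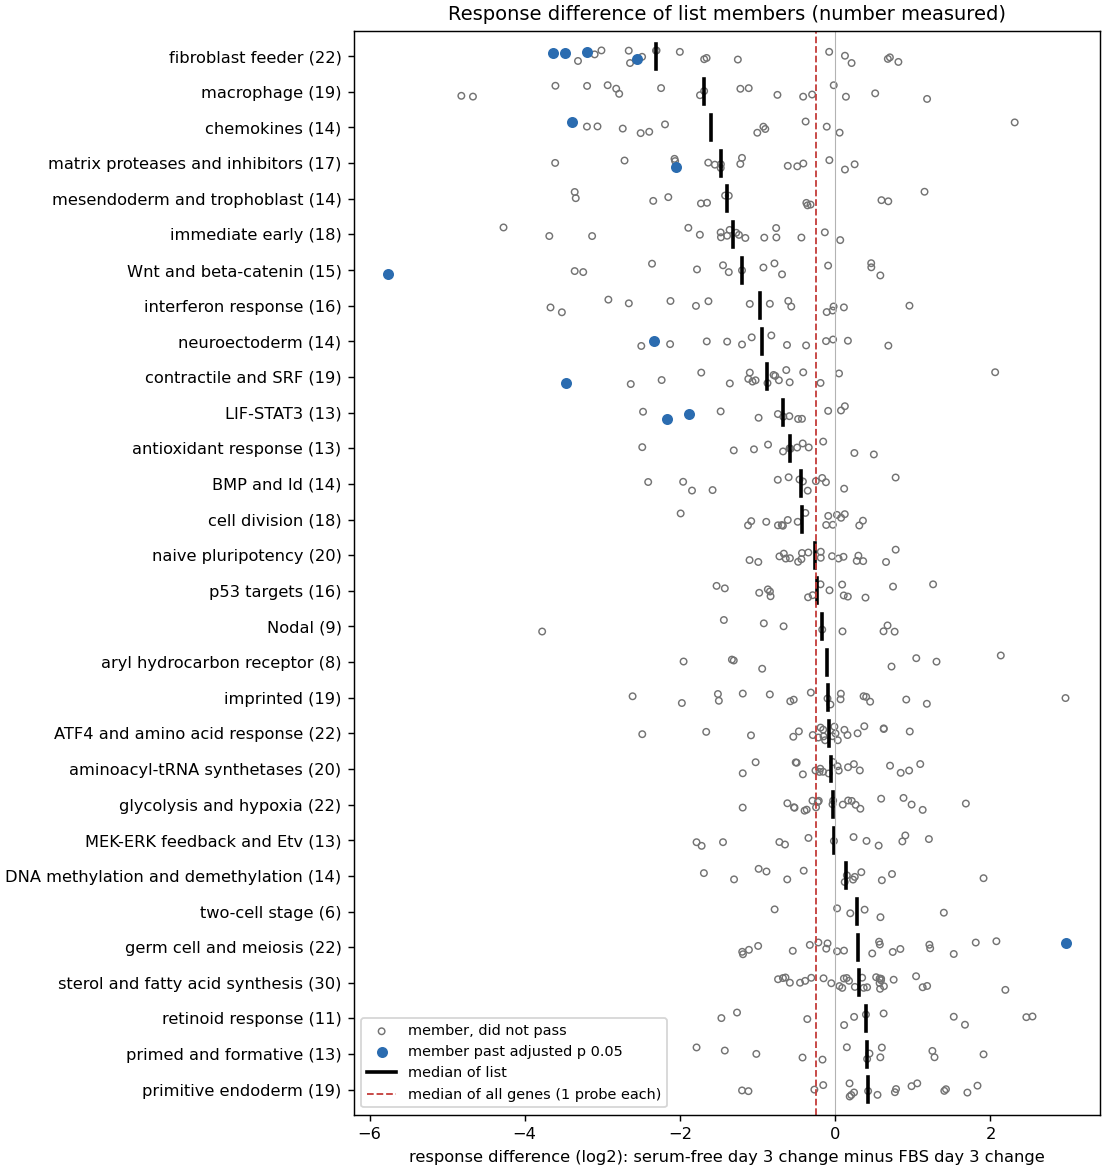
Response difference (log2) of the measured members of the 30 lists, ordered by median from the lowest at the top. Open circles did not pass, filled circles passed an adjusted p of 0.05, black bars are list medians and the dashed line is the median of all genes (-0.25). Fibroblast, macrophage and chemokine genes lie lowest, and called members lie below 0 but for Figla.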

How the data were processed

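Total RNA of 12 ES cell samples (2 lines, 2 arms, days 0, 3 and 10) was labelled with Cy3 and hybridised to 1-colour Agilent arrays. The deposited scanner intensity values are background-subtracted and detrended signals of 1 array each, made with Agilent Feature Extraction 9.1.3.1, per the file headers. The deposited marks (0 or 1) say whether a spot lay well above background. A second deposited table of the authors holds a ratio of each signal to a median near 1 for its array, per its values, and was used as an alternative. Its further processing is not given in the sources used here.

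From the intensities log2 signal minus the array's 75th percentile was computed for 41144 of 41174 non-control probes, leaving out 30 with an irregular spot. One limma model (3.58.1, R 4.3.3) with group and line as terms was fitted to all 12 arrays (5 residual degrees of freedom) and tested the response difference, with p-values adjusted over all probes at 0.05. The line is a block since same-numbered samples are 1 line. Line differences correlated at 0.126 (FBS day 3 with day 0) to 0.450 (serum-free day 3 with day 0) between groups. In both serum-free groups the lines lay on different slides, so line and slide cannot be told apart in that highest value. A gene is given by its probe of highest mean. The rule for named genes took the 12 highest and 12 lowest called genes with the same sign in both lines and a measurable size, filled up where fewer passed from genes of unadjusted p under 0.01, 2 to 8 members of each of 30 lists (474 of 482 genes measured), and Dazl, Dppa3, Nanog, Pou5f1, Sox2, Zfp42, Tet1, Tet2 and Tet3. Members and lists were chosen with earlier results of these data known. Where a group was not well above background, a fold is a lower bound, set at the lowest signal above background. On simulated data at 41144 probes, 67 of 100 changes of log2 3 and 3 of 100 of log2 1.5 were recovered, with 7 false calls. The changes were placed in probes above background on at least 2 arrays. The simulated noise was independent between arrays, so recovery in dimmer probes or with a slide effect was not tested. Scaling, background correction, filters, the slide, the block, samples in the fit and each array left out were tried as alternatives. Results of 2 called or listed genes are not reported here.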

Additional observations from a re-analysis of the deposited data

Results flagged for a closer look

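The response itself is a difference between arms under the same contrast, and by its test 88 probes passed. In single genes the Stella-GFP and Dazl-GFP lines had response differences of opposite sign, each from 1 array per group and line, and the difference between the lines was not tested. Nanog had -0.13 in Stella-GFP and 0.35 in Dazl-GFP cells. Pou5f1 had 1.27 in Stella-GFP and -0.55 in Dazl-GFP cells. The 2-cell stage genes Zscan4c and Tcstv1, which ES cells express in rare bursts, had 3.46 and 2.48 in Stella-GFP and -0.66 and -1.31 in Dazl-GFP cells.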

How the results depend on the processing

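The count of 88 probes past an adjusted p of 0.05 depended on nearly every choice, while signs mostly held where the estimate could move. It was 96 with quantile normalization and 90 with the authors' table, 55 with the percentile of bright probes, 449 and 1572 among probes above background on 2 and on all 8 arrays, 336 with 1 probe per gene, and 1059 with a variance trend. It was 0 with normexp (1702 at an unadjusted p under 0.05) and 17856 with its backgrounds repaired, 0 with the slide as a block, 1 within slides, 0 on the 8 arrays alone (11233 unadjusted) and 0 from line differences (9712 unadjusted). In the fit with no replicate block for the line it was 0 (7211 unadjusted). Leaving out 1 array gave 0 to 72. The cause of these moves was not tested. All 88 kept their sign in each of these fits that tested them but for normexp (76 of 88, and 82 of 88 repaired). Signs were fixed in advance under the filters, the variance trend, the 8 arrays alone and line differences, which give identical estimates. The same holds with no replicate block and with day 10 arrays left out. Il6 turned to 0.51 with normexp and Figla to -0.12 with it repaired. Sign turned in 30 of 2676 values of 104 genes not called.

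The naive list median (-0.27) was -0.030 with quantile normalization, -0.47 with normexp, -0.20 with it repaired, -0.14 with the bright percentile, -0.20 within slides, and -0.41 to 0.00 (-0.0039) without 1 array. The immediate early median (-1.32) was -0.68, -0.96 repaired, -1.14 with the slide as a block and -1.51 to -1.19 without 1 array. The Wnt median (-1.20) was 0.26 with normexp, -0.80 repaired and -0.78 above background on 8 arrays. Other negative list medians also turned sign in at least 1 setting. They reached 0.17 for macrophage genes, 0.02 for chemokines, 0.59 for neuroectoderm and 0.61 for mesendoderm and trophoblast. The LIF-STAT3 median (-0.67) was -0.82 with normexp, -0.54 with the bright percentile and -0.54 within slides. With 1 array per line and group, precision is set by 2 lines, and dim probes near background have the least certain sizes.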

Other observations

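Day 10 does not enter the response difference other than through the spread. There the level difference between the arms (serum-free minus FBS) went the same way at most probes called lower. It was below 0 in both lines at 50 of the 68 probes called lower and above 0 in both at 14, with a median of -0.91. Over all 41144 probes it was below 0 in both lines at 9349 and above 0 in both at 18062, with a median of 0.16. Of the 20 called higher it was above 0 in both lines at 11 and below 0 in both at 3. Their median of 0.23 lay near that of all probes. Sp5 was the other way round at day 10, at 1.46 and 1.84 in serum-free and -0.09 and -1.45 in FBS cells. At day 0 the median level difference between the arms was 0.15 at the probes called lower and -0.88 at those called higher, against 0.02 over all probes. At day 3 it was -2.78 and 1.72, against -0.28. The levels of days 0 and 3 enter the response difference on which these probes were called.

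Lyz1, the lysozyme gene next to Lyz2 and close to it in sequence, had a response difference of -4.82 (adjusted p = 0.101), and probes of these neighbours may not tell their transcripts apart.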
